A study of Mus musculus with 6 samples.

Results

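The 8 genes Ccdc153, Pdzd3, Wscd1, Igfbp2, Tnnt1, Skint5, Loxl2 and Kcnj13, of 21938 protein-coding genes, were listed as those most open in resting horizontal basal cells of the mouse olfactory epithelium. They were chosen by measured accessibility in these same libraries, so their differences between injured and uninjured mice are described without a test. The data go against the list for Skint5, which held no open stretch at all, and the start of Loxl2 could not be read because no fragment was mapped there. Open chromatin was measured by single-cell ATAC-seq (10x Genomics), in which a transposase cuts accessible DNA and each fragment end marks a cut site. Every mouse carried Krt5CreER and a Rosa26 LSL-YFP reporter on both alleles, so that YFP marked cells in which Cre had been active and their descendants. The 3 uninjured mice were 8 weeks (replicate 1), 6 weeks (replicate 2) and 6 to 7 weeks old (replicate 3). The 3 injured mice had the same ages, replicate by replicate, and were collected 24 h after methimazole, a drug toxic to the olfactory epithelium. Dorsal epithelium was dissociated animal by animal and living YFP-positive cells were sorted, so a library holds whatever YFP-positive cells were present, not basal cells alone.

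Horizontal basal cells are flat, Krt5-expressing stem cells that lie on the basal lamina of the olfactory epithelium and are mostly quiescent. When the neurons and sustentacular cells above them are lost, they leave quiescence and rebuild the tissue. The genes considered here are of unlike function. They encode an inward rectifier potassium channel (Kcnj13), a troponin of slow skeletal muscle (Tnnt1), a PDZ-domain scaffold (Pdzd3), a coiled-coil protein (Ccdc153) and a WSC-domain protein (Wscd1). Others encode a secreted binder of insulin-like growth factors (Igfbp2), a secreted amine oxidase that cross-links collagen and elastin (Loxl2) and an immunoglobulin-superfamily membrane protein (Skint5).

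Each library held between 420 and 1338 barcodes with 2000 or more fragments, and these barcodes carried between 14825320 and 44875242 cut sites. Identical fragments with identical barcodes occurred in more than 1 library: uninjured replicates 1 and 2 and injured replicates 1 and 2 shared 121164 to 258230 per pair, and the 2 libraries of replicate 3 shared 754280. Over all barcodes, 1.70% to 7.67% of a library's fragments were shared with another library. In barcodes with 2000 or more fragments, 0.0171% to 0.282% of fragments were shared with another library that held most fragments of their barcode. Of such barcodes 2 to 21 per library had more fragments in another library. The origin of shared fragments was not tested. One barcode of injured replicate 2 held 14.7% of the fragments in its barcodes with 2000 or more. Values are cut sites on a counts-per-million scale (CPM), relative to all cut sites of the library. On that scale the median promoter (1000 bp either side of the 5′-most start) kept 82.5% of its uninjured level after injury, whereas TMM scaling in edgeR sets the median log2 difference to 0.01. Of 17469 promoters tested, edgeR's quasi-likelihood test called 372 higher (2.13%) and 257 lower (1.47%) at an adjusted p under 0.05. Scaling by total cut sites instead gave 417 higher and 6600 lower of 17163 tested.

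The 5 stretches of sequence show where the differences described below lay. Those for Ccdc153 and Kcnj13 are the 250 bases before the RefSeq start, since their differences centred there, and are printed along the strand of the gene. Those for Wscd1, Igfbp2 and Tnnt1 are stretches inside the gene, past the 5′-most start, printed along the plus strand. They come from the 300 bases with the most uninjured cut sites, and for Tnnt1 the exonic part is left out, so that its stretch begins beside the annotated internal start at 4514615. Capitals mark matches, on either strand, to 11 short motifs that are named after the sequences. All positions are on GRCm38.
Kcnj13, chr1:87394730-87394979: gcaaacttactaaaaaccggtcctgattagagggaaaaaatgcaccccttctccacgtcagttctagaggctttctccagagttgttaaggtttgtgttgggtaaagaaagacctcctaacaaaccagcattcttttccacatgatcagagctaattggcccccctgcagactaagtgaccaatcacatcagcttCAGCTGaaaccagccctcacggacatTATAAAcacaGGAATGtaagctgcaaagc
Ccdc153, chr9:44240427-44240676: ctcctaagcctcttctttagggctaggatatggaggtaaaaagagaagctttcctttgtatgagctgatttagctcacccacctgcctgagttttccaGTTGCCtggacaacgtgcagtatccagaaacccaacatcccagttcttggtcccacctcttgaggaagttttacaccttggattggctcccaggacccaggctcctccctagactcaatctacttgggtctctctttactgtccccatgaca
Wscd1 intron, chr11:71758601-71758900: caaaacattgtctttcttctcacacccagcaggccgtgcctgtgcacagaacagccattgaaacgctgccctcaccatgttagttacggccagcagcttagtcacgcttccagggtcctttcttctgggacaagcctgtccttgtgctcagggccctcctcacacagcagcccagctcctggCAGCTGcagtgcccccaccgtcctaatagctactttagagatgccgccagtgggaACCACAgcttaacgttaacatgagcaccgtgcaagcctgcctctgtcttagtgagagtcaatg
Igfbp2 intron, chr1:72827311-72827610: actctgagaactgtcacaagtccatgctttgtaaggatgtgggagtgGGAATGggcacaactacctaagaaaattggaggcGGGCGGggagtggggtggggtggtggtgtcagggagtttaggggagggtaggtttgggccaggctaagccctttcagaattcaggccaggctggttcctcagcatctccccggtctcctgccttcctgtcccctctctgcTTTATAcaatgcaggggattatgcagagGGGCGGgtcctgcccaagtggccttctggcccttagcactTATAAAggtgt
Tnnt1 internal, chr7:4514616-4514800: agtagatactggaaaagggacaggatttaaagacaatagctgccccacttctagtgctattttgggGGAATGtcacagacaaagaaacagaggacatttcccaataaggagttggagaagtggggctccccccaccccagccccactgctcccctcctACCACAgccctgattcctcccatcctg

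The motifs were searched on both strands. For the AP-1 family of stress and growth factors the letters were TGANTCA, and for the TEAD factors of the Hippo pathway they were CATTCC. The element bound by nuclear factor I was searched as TTGGCA and that of the regulatory factor X family, known for its role in ciliary genes, as GTTGCC. Forkhead factors were represented by TGTTTAC and grainyhead-like factors by AACCNGTT. An E-box, the element of basic helix-loop-helix factors, was searched as CAGCTG, and the GC box of SP and KLF factors as GGGCGG. The TATA box was searched as TATAAA, the RUNX element as TGTGGT and the ETS element as CCGGAA. None of these strings contains another. Before the Kcnj13 start lay an E-box, a TATA box match and a TEAD match. An E-box was present in 13.05% of 32544 RefSeq promoters, a TATA box in 12.3% and TEAD in 12.6%. Ccdc153 had 1 match, to the regulatory factor X element, which 10.3% of promoters held. The Wscd1 intron held an E-box and a RUNX match, found in the central 300 bases of 16.1% and 21.7% of all 443384 open tiles. RUNX and TEAD (16.5% of open tiles) also matched in the Tnnt1 stretch, where an E-box adjoined in the exonic part. The Igfbp2 intron held GC box, TATA box and TEAD matches, and the GC box was in 9.87% of open tiles. The AP-1 letters occurred before 1 of the 7 starts in the RefSeq table, that of Wscd1, and in 0 of the 7 windows of 300 bases chosen as described. They were in 6.73% of promoters and 12.8% of open tiles, so nothing is read from these counts. Each match is to a short string and describes these windows only. GC content before the start was 45.2% for Kcnj13 and 49.2% for Ccdc153, under the median of 52.4% for RefSeq promoters, and 67.2% for Igfbp2.

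At the 5′-most starts the groups mostly overlapped. Of the 8 promoters 6 passed the filter on low counts, and 1 of these, Kcnj13, had all 3 injured libraries below all 3 uninjured ones, beside 45.2% of all promoters tested (13.4% with TMM scaling). Kcnj13 read 8.77, 11.8 and 11.2 CPM at its start in uninjured replicates 1 to 3 and 2.16, 1.98 and 2.49 CPM in injured replicates 1 to 3. The groups lay far apart, with 20.9% of the uninjured mean left on the scale of total cut sites. In edgeR with TMM scaling the log2 difference was -1.97 ± 0.22 (SE, n = 3 against 3). With scaling by total cut sites it was -2.25. Other promoter log2 differences are also on the TMM scale unless another setting is named. Ccdc153 had the highest promoter level of the list, at 51.6, 43.1 and 20.3 CPM against 21.6, 16.5 and 14.9 CPM. Its groups overlapped, as uninjured replicate 3 lay below injured replicate 1 (log2 difference -0.80 ± 0.39 with TMM scaling). The promoter of Igfbp2 read 16.9, 18.9 and 12.2 CPM against 13.1, 12.2 and 11.5 CPM, which left 76.8%, close to the median promoter. At the 5′-most start of Wscd1 levels were 3.24, 3.50 and 3.58 CPM against 4.14, 2.83 and 1.76 CPM, so the injured values spread around the uninjured ones. Tnnt1 (2.50, 2.68 and 0.918 against 0.758, 0.887 and 1.57 CPM) and Pdzd3 (1.28, 1.92 and 0.475 against 0.669, 0.887 and 1.06 CPM) were low and overlapped. For Tnnt1 the log2 difference was -0.64 ± 0.46, but -2.21 ± 0.34 with windows of 2000 bp either side, which reach the internal start at 4514615. Skint5 had at most 8 cut sites in any library at its start, and Loxl2 had 0. The count of promoters without overlap depended on single libraries. It was 5 without uninjured replicate 3, 3 without injured replicate 1 and 2 without injured replicate 3. Leaving out a library makes separation easier at any promoter, and the matching shares of all promoters were not counted. Among open tiles of the genome (defined below) the share rose from 14.1% to 21.1%, 17.4% and 26.4% in the same settings. Promoters start from a higher share, 45.2%, so the tile shares cannot stand in for theirs. Nothing is read from the counts with a library left out.

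The rest of each locus was read in tiles. The genome was cut into 500 bp tiles, and a tile was called open where its mean over the 6 libraries was at least 5 times the median tile (0.271 CPM). The loci with 30000 bp on either side held 243 distinct open tiles, of which 83 (34.2%) had all injured libraries below all uninjured ones, against 14.1% of open tiles of the genome. Within gene bodies and promoters alone, 29 of 72 open tiles did so (40.3%), and 0 went the other way. With TMM scaling 46 of the 243 tiles (18.9%) were lower without overlap, against 6.49% of open tiles of the genome. The members were chosen for such a difference, so nothing is read from the excess. To locate it, the 2 adjacent open tiles with the largest difference were taken in each gene and called its leading stretch, a choice made after the values were seen. Leading stretches stood at the start in Ccdc153 and Kcnj13, in an intron in Wscd1 and Igfbp2, at internal starts in Tnnt1, and at the 3′ end of the gene in Pdzd3 and Loxl2. Percentages left that follow are on the scale of total cut sites. With TMM scaling the leading stretches kept more: 13.5% (Wscd1), 20.3% (Tnnt1), 23.1% (Kcnj13), 25.6% (Pdzd3), 43.1% (Loxl2), 44.7% (Igfbp2) and 56.5% (Ccdc153).

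**Figure D1:**
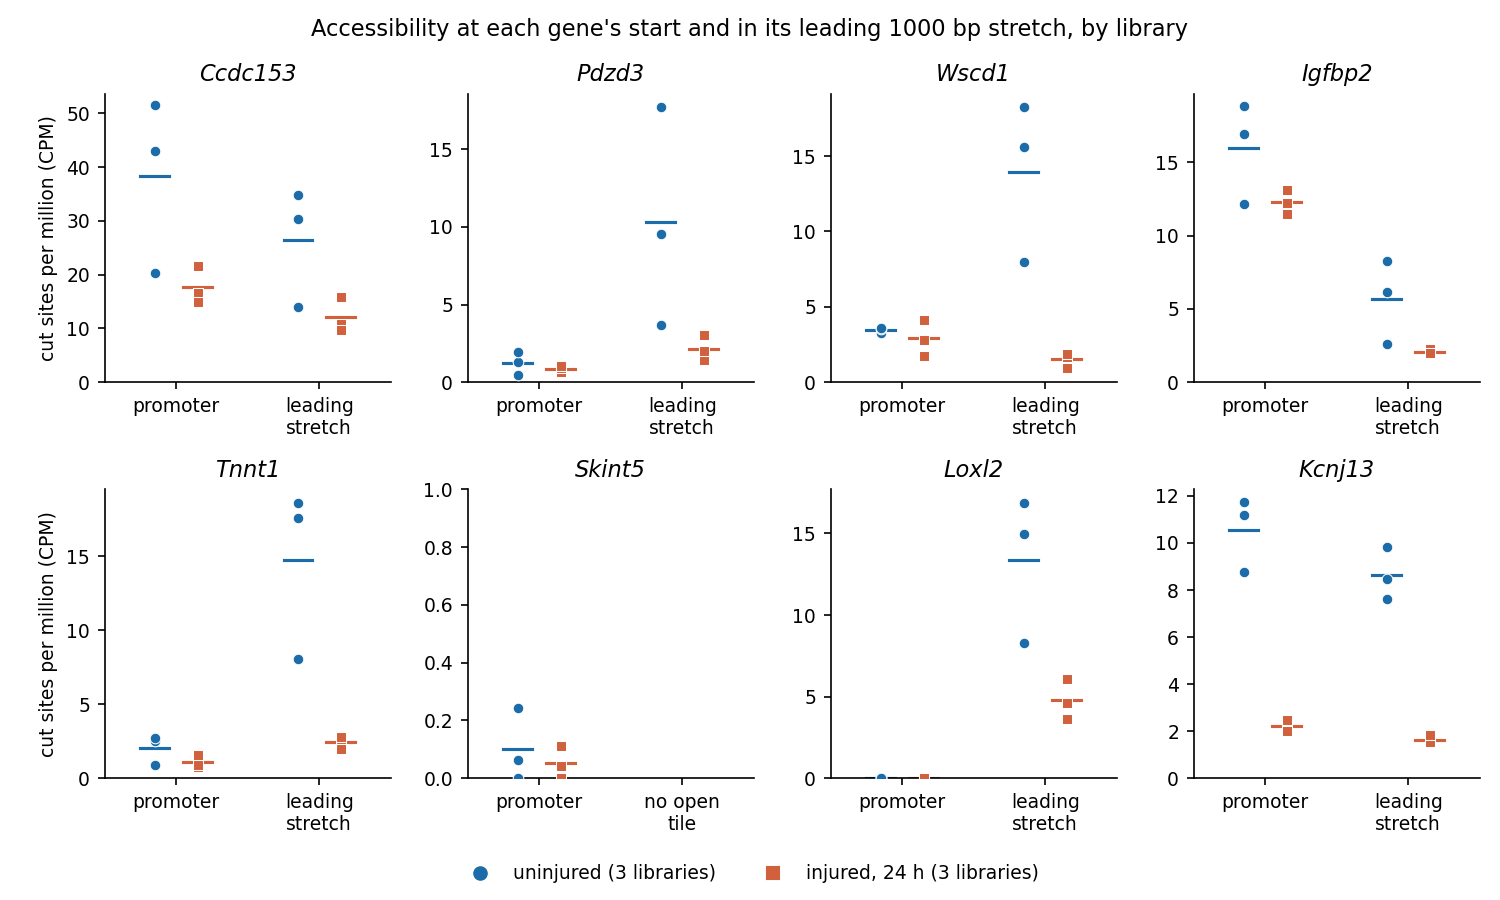
CPM (vertical axes, starting at 0) in each library at the promoter and in the leading 1000 bp stretch of each gene, with uninjured libraries as circles, injured libraries as squares and group means as bars. The promoter groups are apart only for Kcnj13, while among the leading stretches those of Wscd1, Tnnt1 and Kcnj13 are farthest apart and that of Loxl2 leaves 8.30 CPM in the lowest uninjured against 6.08 CPM in the highest injured library.

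The largest difference in proportion was inside Wscd1, a gene of 39728 bp on the plus strand of chromosome 11 (71749920 to 71789647). Its leading stretch (71758001 to 71759000), centred 8580 bp past the 5′-most start and wholly intronic, read 18.3, 15.6 and 7.95 CPM in uninjured and 1.69, 1.90 and 0.952 CPM in injured replicates 1 to 3. Every uninjured library lay above every injured one, and 10.9% of the uninjured mean was left. A lesser peak some way downstream (71764001 to 71764500) read 2.09, 1.86 and 0.507 CPM against 0.401, 0.169 and 0.168 CPM, a difference of the same kind. Of the 7 open intronic tiles of Wscd1, 6 were lower without overlap, and together they kept 15.5%. The 5 open promoter tiles kept 83.9%, and 0 of them was lower without overlap. Flanking open tiles kept 104%.

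Tnnt1, which encodes the troponin T of slow muscle, is annotated on the minus strand of chromosome 7 (4504570 to 4516382) with starts at several places, and its signal lay at the internal ones. The leading stretch (4514001 to 4515000), centred 1882 bp past the 5′-most start, read 18.6, 17.6 and 8.04 CPM in uninjured and 2.61, 1.98 and 2.77 CPM in injured replicates 1 to 3. That left 16.7%, and the libraries of the 2 groups did not overlap. Around the annotated start at 4515107 the 2000 bp window read 20.2, 19.3 and 8.27 CPM against 2.67, 2.45 and 2.89 CPM. The highest tile near a later annotated start (4510001 to 4510500) read 2.90, 2.99 and 3.33 CPM against 2.34, 2.45 and 2.41 CPM and kept 78.1%. All 11 open tiles of the gene lay within 1000 bp of an annotated start, so Tnnt1 had no open intronic tile to compare with them. In its surroundings 28 of 61 flanking open tiles were lower without overlap and the flank kept 66.7%. On this scale 14.1% of all open tiles and 45.2% of all promoters tested were lower without overlap. The flank holds the starts of Ppp1r12c, Tnni3 and Dnaaf3, whose promoters edgeR with TMM scaling did not call.

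Kcnj13 lies on the minus strand of chromosome 1 (87386363 to 87394729) inside the body of Gigyf2, which is transcribed from the other strand, so cut sites there cannot be assigned to either gene by position. All 5 of its open promoter tiles were lower without overlap, with 21.1% left. Its leading stretch (87394501 to 87395500) read 7.62, 9.84 and 8.49 CPM against 1.56, 1.52 and 1.85 CPM. The 3 uninjured libraries were closer to each other in proportion here than at the other 6 leading stretches, and uninjured replicate 3 was not the lowest. The 2 open intronic tiles kept 52.4% together, at 1.57 ± 0.41 CPM (SD, n = 3) against 0.824 ± 0.216 CPM.

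**Figure D2:**
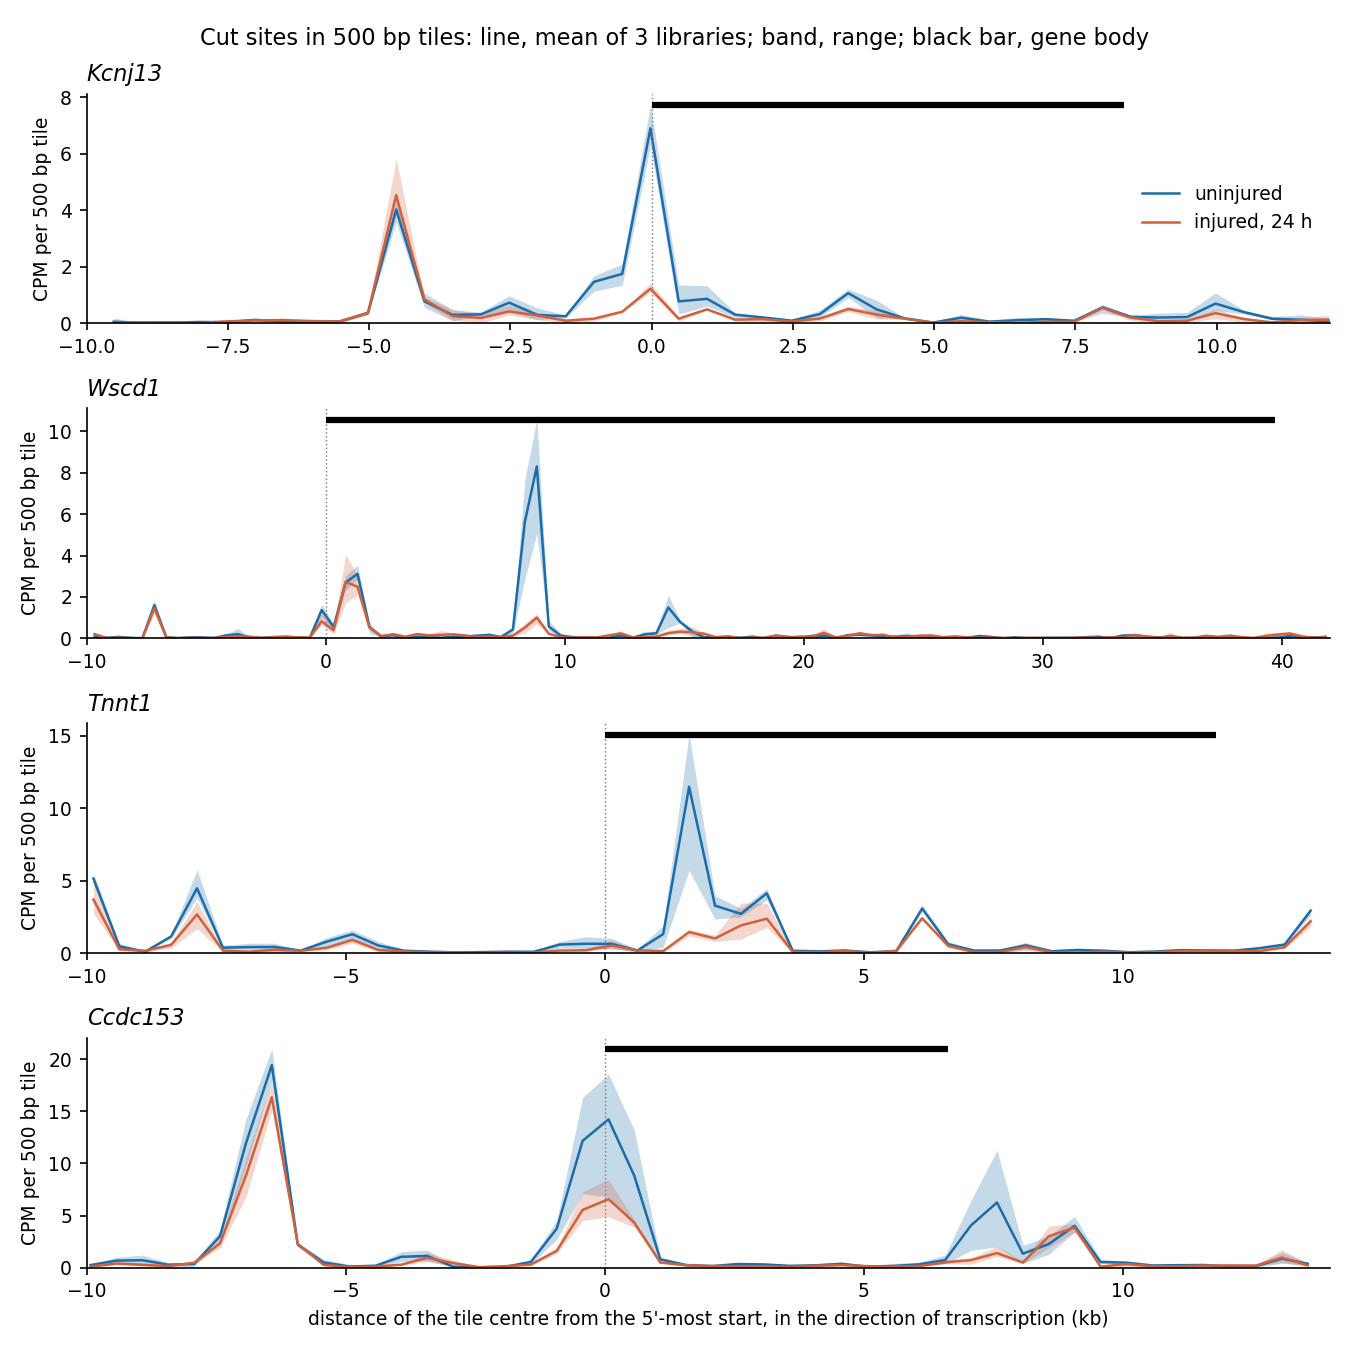
CPM in 500 bp tiles (vertical axes) by distance from the 5′-most start in kilobases (horizontal axes) at 4 of the genes. Lines are means of 3 libraries and bands their range, and the black bar is the gene body. The Kcnj13 peak is at its start, the Wscd1 peak is 8580 bp inside the gene, the Tnnt1 peak is at internal starts, and the second, wider-banded peak past the Ccdc153 gene body lies in Pdzd3.

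Ccdc153 and Pdzd3 are neighbours on chromosome 9 whose 3′ ends are adjacent, at 44247306 and 44247307. The leading stretch of Ccdc153 (44240001 to 44241000) spans its start and read 34.9, 30.4 and 13.9 CPM against 15.8, 10.9 and 9.72 CPM. Uninjured replicate 3 lay below injured replicate 1 there as well. For Pdzd3 the leading stretch was the 3′ part of its body (44247501 to 44248500), 3471 bp past its 5′-most start. It read 17.7, 9.57 and 3.67 CPM against 3.01, 1.44 and 2.02 CPM, so the groups did not overlap on this scale but came close, and with TMM scaling they overlapped. The window at the second annotated start of Pdzd3, 44249936, read 9.31, 7.40 and 5.42 CPM against 8.51, 7.05 and 6.56 CPM and kept 99.95%. The loci of both genes share flanking tiles, and the flank of each includes the leading stretch of the other. Their flank values, 78.8% left for Ccdc153 and 71.5% for Pdzd3, are therefore not independent and hold each other's difference.

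Among the genes of the extracellular space, Igfbp2 had its leading stretch in an intron (chromosome 1, 72827001 to 72828000), 2997 bp past the start of a gene that spans 72824503 to 72852474. It read 8.30, 6.19 and 2.60 CPM in uninjured and 2.25, 1.98 and 1.99 CPM in injured replicates 1 to 3. Uninjured replicate 3 was close to the injured libraries and overlapped them with TMM scaling. The 14 open intronic tiles of Igfbp2 kept 60.1% together, and the 7 promoter tiles 80.4%. Loxl2, on chromosome 14 (69609068 to 69695834), could be read only at its 3′ end. In the stretch from 69579001 to 69690000, which includes every annotated start, 222 tiles held 0 cut sites in every library. The central 50 bases of all 222 occur more than once on the same chromosome of the reference, against 2 of the 72 other tiles of the locus. Openness of the Loxl2 start cannot be judged from these values. Its leading stretch (69693001 to 69694000), 84432 bp past the start, read 14.97, 16.9 and 8.30 CPM against 4.61, 3.63 and 6.08 CPM, with 35.7% left and no overlap.

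Skint5 was not open by the measure used here. The gene spans 521613 bp of chromosome 4 (113477891 to 113999503), and of 1165 tiles in its locus 0 was open. The gene body read 20.2, 85.7 and 8.04 CPM in uninjured and 39.2, 40.3 and 10.9 CPM in injured replicates 1 to 3. Uninjured replicate 2 was the highest library and uninjured replicate 3 the lowest, so the groups overlapped fully. Per kilobase this was 0.0154 to 0.164 CPM, below the mean of 0.367 CPM per kilobase over all chromosomes. In uninjured replicate 2, 10 of its 889 barcodes held 91.1% of the cut sites in Skint5, whereas in uninjured replicate 3 the top 10 held 31.5%. By cluster, as described below, the Skint5 body read most in cluster 8 (106 CPM) and cluster 2 (69.6 CPM), against 18.8, 5.48 and 5.69 CPM in clusters 1, 3 and 6. These cluster values were not split by library, so a few barcodes of 1 library may carry them. Uninjured replicate 2 held 2812 cut sites in Skint5, against 300 and 254 in uninjured replicates 1 and 3. The gene has no leading stretch and is left out of what follows.

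Promoter and intronic tiles could be compared inside 4 genes, and their differences were unlike. The log2 ratio of promoter to intronic CPM in Wscd1 was -1.46, -1.18 and -0.39 in uninjured and 1.71, 0.88 and 1.43 in injured replicates 1 to 3. The injured mean was 2.35 above the uninjured one, and the groups did not overlap. In Kcnj13 the order was the opposite, with ratios of 3.01, 2.63 and 3.14 against 1.91, 1.56 and 1.38, a difference of -1.31 and again no overlap. The ratio in Igfbp2 differed by 0.39 and its libraries overlapped. In Ccdc153 the difference was -0.60, but the only open intronic tile had a mean of 0.325 CPM.

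**Figure D3:**
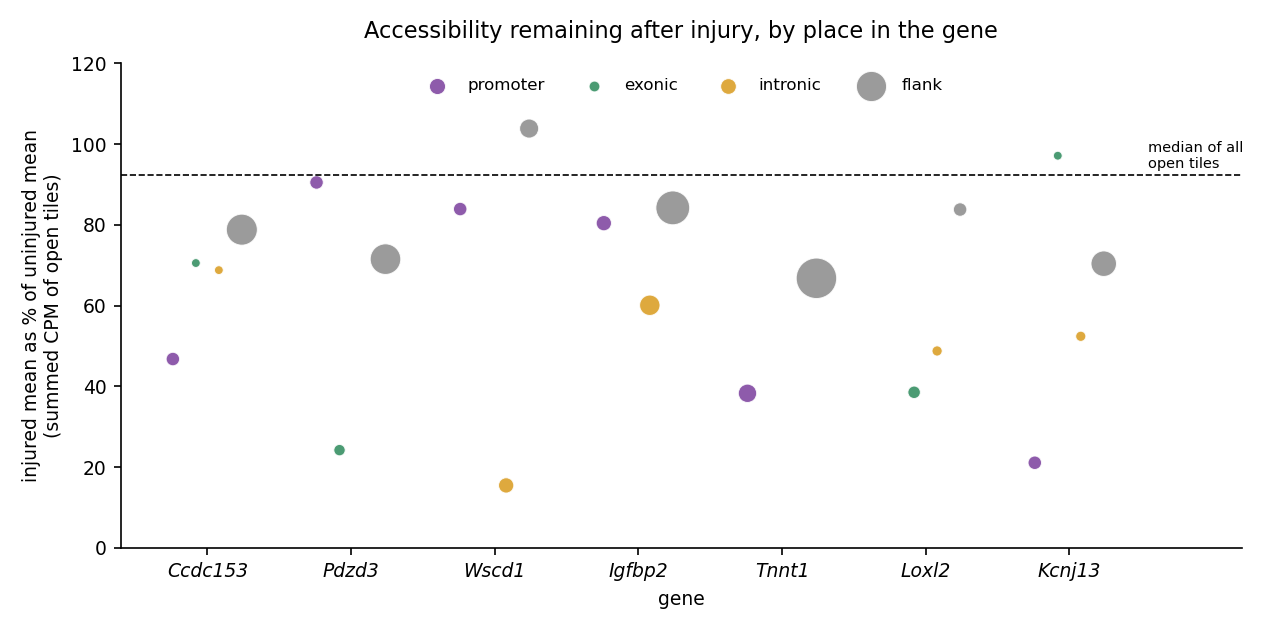
Injured mean as a percentage of the uninjured mean (vertical axis) of the summed CPM of open tiles, by gene and by place, with larger points for more tiles. The dashed line is the median of all open tiles of the genome, 92.4%. Wscd1 has its lowest point in the intron, Pdzd3 in exons and Kcnj13 at the promoter, and the flanks of all but Wscd1 lie below the line. The flanks of Ccdc153 and Pdzd3 include each other's leading stretch.

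The same cut sites were also counted as shares of barcodes. The stretches were chosen for their difference, so these shares are no separate support for it. Each barcode was thinned to 4000 cut sites, which left none out. The Wscd1 stretch then had a cut site in 7.93%, 4.95% and 3.97% of barcodes of uninjured replicates 1 to 3 and in 0.523%, 0.238% and 0.670% of injured replicates 1 to 3. Before thinning these shares were 21.8%, 16.3% and 12.4% against 2.77%, 4.29% and 2.55%. For Tnnt1 the thinned shares were 6.61%, 5.85% and 3.34% against 0.822%, 0.714% and 0.670%. Every uninjured library was above every injured one for both genes. Of the other leading stretches that of Ccdc153 overlapped, at 5.88% in uninjured replicate 3 and 6.05% in injured replicate 1, and the rest did not. As a background, 0 of the 186 cells of cluster 7 (described below) had a cut site in the Wscd1 stretch before thinning, which allows a share of up to 1.61%. In the Tnnt1 stretch 3.76% of them had one before thinning and 0.538% after it, and injured shares before thinning were 3.89%, 5.24% and 6.17%. Injured levels after thinning rest on few barcodes, 1 to 7 per library for Wscd1.

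Promoter and intron of Wscd1 were cut in the same barcode more often than separate draws would give, and so were stretches on different chromosomes. Within 5 classes of depth per library, 21 barcodes had both in uninjured replicate 1 where 14.8 would be expected from the 2 shares, 54 against 27.7 in replicate 2 and 24 against 15.6 in replicate 3. In injured libraries the numbers were small, at 15 against 10.5, 6 against 4.30 and 6 against 4.55. Inside cluster 2 alone the excess was smaller, at 19 against 14.1, 50 against 35.5 and 8 against 7.29. The leading stretches of Wscd1 and Tnnt1, on different chromosomes, gave 39 against 27.3, 62 against 43.8 and 18 against 11.6 in uninjured replicates 1 to 3. Inside cluster 2 they gave 38 against 34.7, 59 against 56.04 and 16 against 16.7. An excess over whole libraries is thus not particular to the promoter and intron of Wscd1. Expected numbers still depend on differences in depth and in kind of cell within a class, whose part was not tested.

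Cells were clustered without the members' loci, and 8 clusters of 4397 cells resulted. Cluster 2 (1043 cells) held 71.5%, 62.6% and 24.4% of cells of uninjured replicates 1 to 3 and at most 1.25% of an injured library. Cluster 1 (1385 cells) held 74.4%, 61.9% and 20.2% of injured replicates 1 to 3. Cluster 3 (983 cells) had 50 or more cells from every library. Horizontal basal markers, read over gene bodies, were above the mean of all cells in clusters 1, 2, 3 and 6. In cluster 5 (207 cells) the sustentacular list was highest, and in cluster 7 the list of mature olfactory neurons. Clusters are kept as numbers, and sets of this kind give no test of a member.

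Of the 7 leading stretches, 6 had their highest level in cluster 2. The stretches were chosen for a higher uninjured level, and cluster 2 holds nearly only uninjured cells. A high level there follows in large part from that choice. The Wscd1 stretch read 27.0 CPM there (95% exact binomial interval 25.2 to 28.8, counting error only), 2.05 CPM in cluster 1 and 1.10 CPM in cluster 3. For Pdzd3 the values were 19.5, 2.59 and 2.52 CPM, and for Tnnt1 26.01, 2.39 and 4.48 CPM. Ccdc153, at 45.4, 14.1 and 17.8 CPM, differed less in proportion. Kcnj13 was highest in cluster 5, at 21.9 CPM (18.6 to 25.7) beside 11.7 CPM in cluster 2 (10.6 to 12.9), over all libraries. By library the order was less clear: cells of cluster 2 read 10.7, 10.0 and 21.8 CPM in uninjured replicates 1 to 3, and cluster 5 had 50 or more cells only in uninjured replicate 2, at 22.6 CPM. Loxl2 was also open in cluster 5, at 15.7 CPM beside 21.4 CPM in cluster 2. Ccdc153 read 17.1 CPM and Tnnt1 10.8 CPM in cluster 5, while Wscd1, Igfbp2 and Pdzd3 read 4.27, 2.85 and 1.42 CPM.

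**Figure D4:**
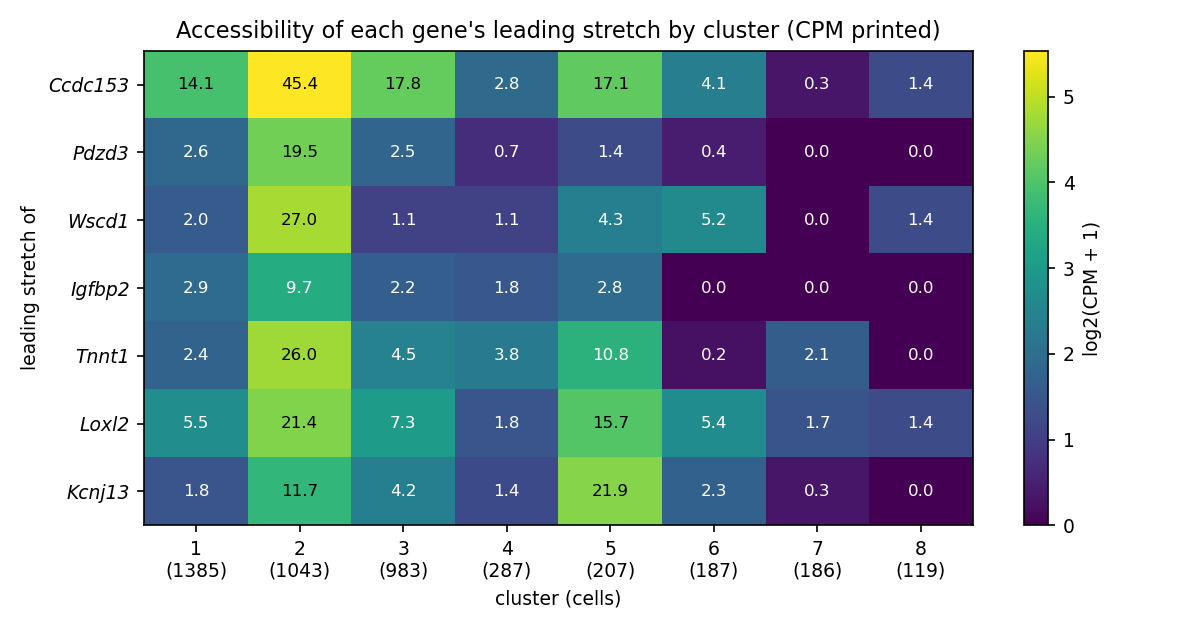
Level of each leading stretch (rows) in each cluster (columns, number of cells in brackets), coloured by log2(CPM + 1) with the CPM printed. Cluster 2 is highest in every row but Kcnj13, whose highest value, 21.9 CPM, is in cluster 5. The stretches were chosen for a higher uninjured level, and cluster 2 holds nearly only uninjured cells.

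Library by library, cells of cluster 2 from uninjured replicate 3 were the highest of the 3 at Wscd1, Tnnt1 and Kcnj13, between the others at Ccdc153, Pdzd3 and Igfbp2, and the lowest at Loxl2. Tnnt1 read 27.6, 25.4 and 28.2 CPM in the cluster 2 cells of uninjured replicates 1 to 3, and Loxl2 21.4, 21.9 and 20.7 CPM. The low values of uninjured replicate 3 at 6 of the 7 leading stretches in the whole library stood beside its smaller share of cluster 2 cells. Another 26.4% of its cells were in cluster 6, where the Igfbp2 stretch had 0 cut sites that of Tnnt1 read 0.184 CPM, that of Wscd1 5.23 CPM and that of Loxl2 5.42 CPM. Fewer such cells and less signal per cell cannot be told apart in the summed values. In cluster 3 the groups could be set side by side. Wscd1 read 0, 2.62 and 0.650 CPM in uninjured and 0.815, 1.79 and 1.12 CPM in injured cells of cluster 3, all under the cluster 2 levels of 24.4 to 37.4 CPM. Tnnt1 lay at 2.72 to 7.59 CPM and 3.06 to 3.94 CPM, and Loxl2 at 6.21 to 8.89 CPM and 1.57 to 8.94 CPM. Kcnj13 read 1.94, 4.98 and 9.11 CPM in uninjured and 2.44, 2.24 and 2.68 CPM in injured cells of cluster 3, with overlap through uninjured replicate 1. The Ccdc153 stretch read more in injured (18.0 to 23.1 CPM) than in uninjured (13.2 to 17.8 CPM) cells of cluster 3. In cluster 1, made up nearly wholly of injured cells, Wscd1 read 1.66 to 2.15 CPM, Tnnt1 1.86 to 2.67 CPM and Kcnj13 1.51 to 2.65 CPM.

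**Figure D5:**
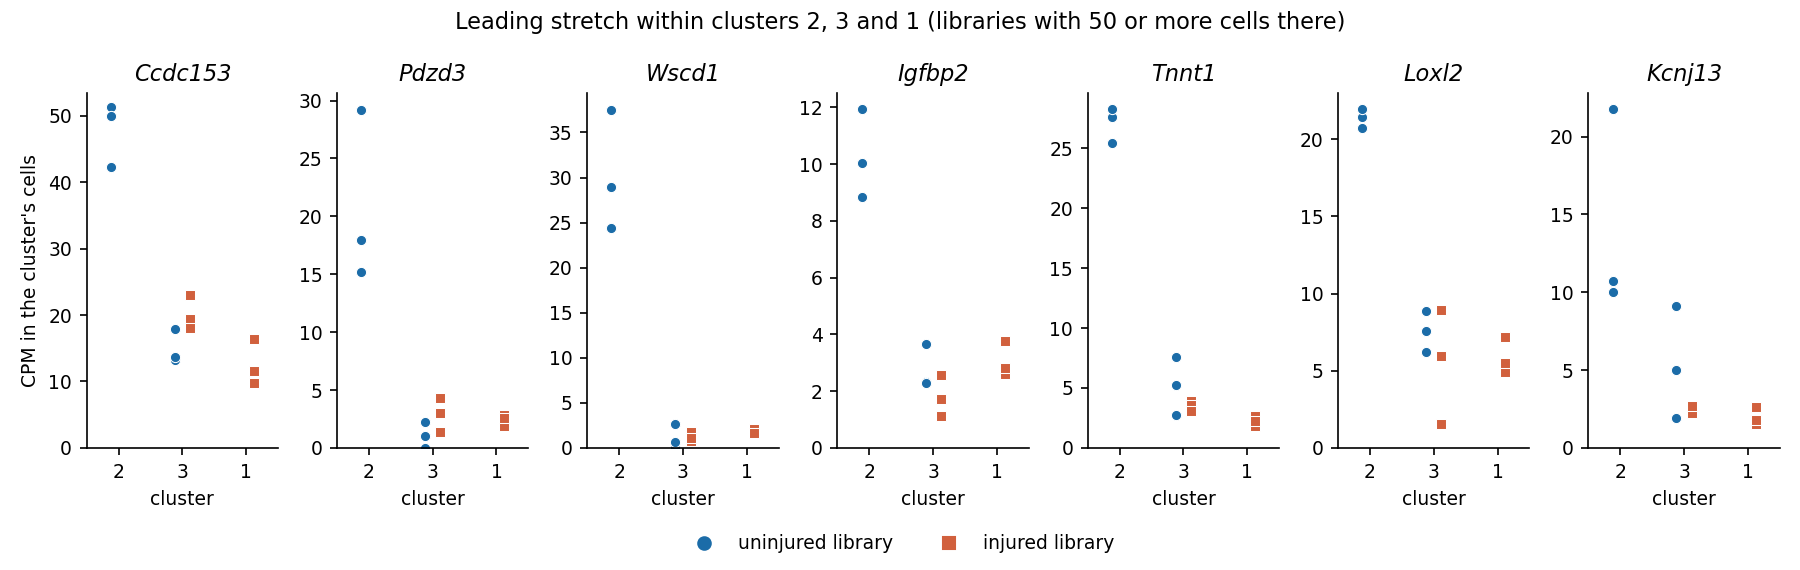
CPM of each leading stretch (vertical axes) in the cells of clusters 2, 3 and 1, one point per library with 50 or more cells there, circles uninjured and squares injured. Uninjured cells of cluster 2 stand above those of cluster 3 in every panel, and in cluster 3 the groups lie close together for Wscd1.

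Markers of other cell types were read in the same libraries. The 8 sustentacular genes summed to 99.2 to 132 CPM in uninjured and 72.8 to 85.1 CPM in injured libraries, with 3 of 8 lower without overlap. Of the 9 horizontal basal genes 4 were, and of the 4 ensheathing glia genes 1 was. Lower without overlap were 45.2% of promoters and 14.1% of all open tiles, both of them other windows. Horizontal basal genes summed to 779 to 915 and 669 to 815 CPM, the 8 mature neuron genes to 199 to 240 and 167 to 322 CPM, and both of these overlapped. The sums of gland genes (90.5 to 103 against 68.1 to 77.1 CPM) and ensheathing glia genes (42.6 to 48.1 against 32.8 to 40.1 CPM) were lower without overlap, with 2 of 5 gland genes so. The sum of immune genes was higher (40.7 to 51.3 against 52.4 to 58.3 CPM), with 2 of 7 genes higher without overlap. So were 2 of 4 endothelial, 2 of 8 ciliated and 1 of 5 mesenchymal genes, beside 12.2% of all open tiles, which are other windows. The share of promoters higher without overlap was not counted, so the 2 directions have unlike backgrounds. In the endothelial list and in the microvillar list of 6 genes, 1 gene each was lower without overlap. The sums of these last 4 lists overlapped, and no gene of any list was at 0. Cluster 5, where the Kcnj13 stretch was highest, held 4.45%, 13.3% and 6.53% of cells of uninjured and 0.833%, 0.990% and 1.95% of injured replicates 1 to 3. The part of these shifts in the members' values was not tested. In the 4 basal clusters alone, which leave out cluster 5, the Kcnj13 stretch read 8.75, 9.13 and 8.81 CPM in uninjured and 1.70, 1.89 and 2.58 CPM in injured replicates 1 to 3, so 23.1% was left. Values of the other stretches in the basal clusters were 9.79% for Wscd1, 15.1% for Tnnt1, 20.5% for Pdzd3, 36.3% for Igfbp2, 37.7% for Loxl2 and 46.9% for Ccdc153.

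Values were also taken without the barcodes of doubtful origin. Without barcodes of over 200000 fragments the leading stretches kept 10.9% (Wscd1) to 48.5% (Ccdc153), and without barcodes that had more fragments in another library 10.9% to 46.1%. Separation of the groups was the same in both settings for all 7. The pairs of libraries that share fragments differed more. In replicates 1 and 2 together 10.6% was left for Wscd1, 12.7% for Tnnt1, 17.6% for Kcnj13 and 25.9% for Loxl2. In replicate 3 it was 11.98%, 34.5%, 21.8% and 73.3%. For Igfbp2 the 2 values were 29.2% and 76.6%, for Pdzd3 16.3% and 54.9%, and for Ccdc153 40.8% and 69.9%.

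Relatives of the genes, listed by family, were tested in the fit over all promoters. Of 73 genes in 8 family lists 64 passed the filter, and edgeR called 2 higher and 0 lower, beside 2.13% and 1.47% of all promoters. An unadjusted p under 0.05 was found for 13 of the 64, beside 21.3% of all promoters. DESeq2 called 4 higher and 0 lower, beside 3.78% and 2.97% of the promoters to which it gave an adjusted p. In the insulin-like growth factor list, 1 of 18 tested was called, Igfbp3, another binding protein. Its promoter read 15.04, 14.8 and 18.8 CPM against 24.9, 20.5 and 18.3 CPM (log2 0.68 ± 0.14, edgeR adjusted p = 0.0247). Among 7 troponin genes 1 was called, Tnni1, the slow skeletal inhibitory subunit, at 2.83, 5.15 and 5.89 CPM against 8.33, 6.42 and 8.52 CPM (log2 1.01 ± 0.25, edgeR adjusted p = 0.0423). With scaling by total cut sites 2 of the 64 relatives were called higher and 15 lower, beside 417 and 6600 of all 17163 promoters tested. Leaving out uninjured replicate 1 or 2 or injured replicate 1 or 2 ended both calls. By edgeR 0 were called among 4 lysyl oxidases, 14 inward rectifiers, 3 PDZ scaffolds, 15 coiled-coil and ciliary genes and Wscd2, and 8 of 10 Skint genes were too low to test. The 2 further calls of DESeq2 were Loxl4, a lysyl oxidase, and Stc2, and with windows of 2000 bp either side edgeR also called Igfbp6, Loxl4 and Rsph1. In the basal clusters alone edgeR also called Kcnj11, an inward rectifier, and Stc2. Without injured replicate 3 it called 4 higher, among them Loxl4 and Cfap43, and 1 lower, the PDZ scaffold Slc9a3r1.

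Neighbouring genes were tested in the same fit. The starts of 7 other coding genes lie in or within 30000 bp of the members' gene bodies, and edgeR and DESeq2 each called 0 of them, with 1 at an unadjusted p under 0.05. Tnni3, a troponin gene beside Tnnt1, read 7.29, 6.16 and 5.48 CPM against 3.81, 2.45 and 4.37 CPM (log2 -0.53 ± 0.25, edgeR adjusted p = 0.232). Cbl, whose start is nearest to that of Ccdc153, read 37.5, 33.2 and 39.4 CPM against 30.5, 26.3 and 32.9 CPM (edgeR adjusted p = 0.991). With scaling by total cut sites 5 of the 7 were called lower, beside 6600 of all 17163 promoters tested with that scaling.

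The 5 other promoters with at least 5 CPM that were closest in profile to the mean of Ccdc153, Igfbp2 and Kcnj13 over the 6 libraries were Zfp790, Cnn2, Myl9, Pygb and Shq1, with Pearson's r of 0.996 down to 0.992 on log2(CPM + 1). Each is the best of many promoters over 6 points, and the points share the scaling to total cut sites. Myl9, which encodes a regulatory light chain of smooth muscle myosin, read 16.9, 18.3 and 9.25 CPM against 8.33, 6.29 and 6.67 CPM and kept 47.9%. Zfp790 kept 87.5% and the other three 66.2% to 74.5%.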

How the data were processed

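The deposited fragment files list each deduplicated fragment with its barcode and, as a count, the read pairs behind it. The submitters' processing notes name Cell Ranger 2.0.0 and the build mm10, and the headers of the deposited matrices, not used here, name another software version. Both fragment ends were counted as cut sites over barcodes with 2000 or more fragments, in windows from GENCODE M21 (GRCm38). Per the labels, each animal was processed on its own.

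Promoter sums were tested by edgeR 4.0.16 (quasi-likelihood, TMM, filterByExpr, Benjamini-Hochberg adjustment over 17469 promoters, threshold 0.05) in R 4.3.3. The script was first tested on simulated data. Tiles, places and the leading stretches were described without a test. Cells (20% or more of cut sites in open tiles) were clustered by TF-IDF, truncated SVD and Leiden (leidenalg 0.10.2, resolution 0.5) without the members' loci. Doublets were not removed. Intervals cover counting error only and treat the 2 ends of a fragment as separate.

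Named are the 8 members, the family lists, the neighbours and the 5 promoters closest in profile. Members, lists and motifs were chosen with earlier results of these data known, and the leading stretches and barcode exclusions after these values were seen. Sequences are from RefSeq (GRCm38.p6), whose promoter table matched 7 of the 8. Alternatives were DESeq2 1.42.0, other scalings, filters, windows, barcode sets, a replicate block and leaving out each library.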

Additional observations from a re-analysis of the deposited data

How the results depend on the processing

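The 629 promoters called became 7017 of 17163 with scaling by total cut sites, 6600 of them lower. The number was 1110 with DESeq2, 1172 in the basal clusters only and 100 to 1393 when 1 library was left out. Relatives called, 2 at first, numbered 17 with total cut sites (2 higher, 15 lower), 4 with DESeq2, 5 with windows of 2000 bp either side, 4 in the basal clusters and 0 to 5 with 1 library left out. Neighbours called were 5 with total cut sites and 0 under the other 17 alternatives. With the replicate block 1703 promoters and 7 relatives were called, the latter 6 higher and 1 lower (Slc9a3r1). Deviations of same-numbered libraries correlated at 0.033, 0.165 and 0.199, and ages match by number. Of the 6 libraries 5 correlated best with their own number, and both libraries of replicate 3 share fragments, which is a hint of pairing. No label states that the numbers pair the animals, so the main fit has no pairing and the block is an alternative. The Ccdc153 promoter difference was -0.74 ± 0.14 with the block and -0.80 ± 0.39 without it. Member promoters lower without overlap, 1 at first, were 2 in the basal clusters (Ccdc153 and Kcnj13) and 1 to 5 with 1 library left out, 5 without uninjured replicate 3. The matching shares of all promoters were not counted in these settings, so nothing is read from these counts. Member open tiles lower without overlap were 46 of 243 with TMM scaling (all open tiles 6.49%) and 52 of 134 with tiles of 1000 bp (all such open tiles 16.3%). They stayed within 1.5 times of 83 under the other 14. With 1 library left out or another threshold for open tiles, the members' share was 27.7% to 46.9%. The share of all open tiles was then 10.8% to 26.4%. The promoter to intron log2 difference of Ccdc153 was -0.36 in the basal clusters. Promoter log2 differences stayed below 0 in all 18 alternatives for Ccdc153, Tnnt1 and Kcnj13, with a range of -2.21 to -0.33 for Tnnt1, and changed sign in some for Pdzd3, Wscd1 and Igfbp2. The causes of these shifts were not tested. Low counts limit the starts of Skint5, Tnnt1 and Pdzd3. Exclusion of barcodes over 200000 fragments, and of those with more fragments in another library, was chosen after seeing the data.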
